A study of Mus musculus with 6 samples.

Results

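Basement membrane genes were followed in ear skin of newborn mice after deletion of Kdr, the gene of the VEGF receptor VEGFR2, in endothelium. The set was chosen by gene symbol and holds 33 of the 18404 genes in the count table. It covers proteins of the basement membrane and their main receptors. All 33 symbols were found, each on 1 row. By their textbook sites in skin, 12 were classed as vessel members, 13 as epidermal members and 8 as other members (muscle, nerve, kidney-type chains and broadly used receptors). Polyadenylated RNA was sequenced from 3 control and 3 knockout libraries, the latter labelled ecko, all from skin at postnatal day 3. Both groups received tamoxifen, which the series describes as daily injections of 60 µg from postnatal day 1, and the series name gives 48 h. The series describes the controls as littermates and gives no allele for them, and the sources used here do not name the Cre driver. Whether each library is a separate animal is not given, so the tests measure the spread between these samples.

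A basement membrane is a thin sheet of matrix beneath epithelia and endothelia and around muscle fibres, nerves and fat cells. Laminin trimers polymerise on the cell surface, collagen IV forms a second, crosslinked network, and nidogens and the proteoglycan perlecan join them. In skin, blood vessels lie on a sheet rich in collagen IV and laminins with an alpha4 or alpha5 chain. The epidermis is anchored by laminin-332, integrin alpha6beta4, collagen XVII and collagen VII, and endothelial cells and pericytes both contribute to the vessel sheet.

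Collagen IV genes lie in head-to-head pairs, and the start regions of 2 pairs are shown because the chains of each pair assemble into the same trimers and their ratios are reported further on. Sequences are from RefSeq, GRCm38.p6, where promoter windows (250 bases before to 50 after the annotated start) were found for 23 of the 33 members. Col4a1 and Col4a2 are read in opposite directions on chromosome 8. Counted from the first listed start of each gene, they share 22 bases, set in capitals in the plus-strand stretch chr8:11312801-11312830. The annotated spans of the 2 genes overlap further, from 11312805 to 11312889. The counting was not stated to use strand, so strand cannot be assumed to have separated reads from bases that belong to both genes. The counts of both genes were whole in every library, so no sharing of reads between them showed. The first listed starts of Col4a6 and Col4a5 on chromosome X are 1343 bases apart. Their annotated spans lie closer, with Col4a6 ending at 141474095 and Col4a5 starting at 141475370. The sequences upstream of both spans are given in each gene's own direction, with capitals for a match to 1 of the 3 motifs described next. The Col4a6 stretch holds none. The Col4a5 stretch is chrX:141475169-141475369 (plus strand) and the Col4a6 stretch is chrX:141474096-141474326 (minus strand).
Col4a2 and Col4a1 starts: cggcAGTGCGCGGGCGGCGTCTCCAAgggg
Col4a5 upstream: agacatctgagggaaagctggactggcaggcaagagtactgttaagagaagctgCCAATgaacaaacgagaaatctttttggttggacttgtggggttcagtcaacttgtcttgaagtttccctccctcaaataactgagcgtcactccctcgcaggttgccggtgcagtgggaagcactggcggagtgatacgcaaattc
Col4a6 upstream: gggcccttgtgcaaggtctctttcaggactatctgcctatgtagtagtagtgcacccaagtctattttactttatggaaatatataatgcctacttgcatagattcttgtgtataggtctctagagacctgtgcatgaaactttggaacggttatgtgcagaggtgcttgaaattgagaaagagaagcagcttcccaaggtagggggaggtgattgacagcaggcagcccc

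Over the full 300-base windows, the letters GGGCGG (a GC box) were present for Col4a1, Col4a2, Col4a5 and Col4a6. The letters CCAAT were present for Col4a1, Col4a2 and Col4a5. In all, 8 of 9 vessel members with a window held GGGCGG, against 5 of 9 epidermal members and 35.7% of the 32851 windows in the table. CCAAT was found in 6 of 9 vessel and 6 of 9 epidermal members and in 37.4% of all windows. TATAAA was found for 1 member with a window in these classes, Col17a1, and in 13.6% of all windows. Both strands were searched, and none of the 3 motifs contains another. A member with several annotated starts counted once if any window held the motif. The shares over all windows count each window by itself, so they are not on the same footing as the counts of members. The GGGCGG within the bases shared by Col4a1 and Col4a2 lies in the windows of both genes and counted for each. These are matches of letters, not binding sites.

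Kdr transcripts, which check the labels, were lower in every ecko library. Controls had counts of 1599, 1860 and 1337, ecko of 348, 431 and 370, a log2 fold change of -2.05 ± 0.12 (SE; edgeR adjusted p 2.00e-04). Libraries held 16987130 to 17979182 expected counts, and the members' values below are CPM, counts scaled to library size after TMM normalisation (mean ± SD, n = 3). The marker genes of the labelled tissue were present in every library: Krt5 of basal keratinocytes at 3136 to 3698 CPM, Col1a1 of fibroblasts at 8202 to 9503 CPM and Pecam1 of endothelium at 127.0 to 164.5 CPM. Control 3 stood apart by its muscle content, with a mean of 7.49 log2 CPM over 12 skeletal muscle markers against 7.97 to 8.30 in the other libraries. Control 2 and ecko 3 were almost without reads from the Y-linked gene Ddx3y (4 and 6 counts, against 1445 to 1641), so each group held 1 such library. In RNA of whole skin, fewer cells of a type and less RNA per cell cannot be told apart.

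No basement membrane gene passed the test between ecko and control. Of the 33 members, 32 passed the filter on low counts, and 0 of them rose or fell at an edgeR adjusted p under 0.05 (smallest adjusted p 0.567), where 0.00670% of all 14920 genes tested were called. Among other models, 0 members were called by DESeq2 (0.711% of all genes), limma-voom (0.00670%), edgeR with a replicate block (0.657%) and edgeR with a muscle covariate (0.315%). At an unadjusted p under 0.05 edgeR had 0 of 32 members, against 9.01% of all genes. The fitted differences were small, from -0.19 (Col4a3) to 0.16 (Lama3) on the log2 scale, with a median of -0.008 over the members and -0.002 over all genes. In 1 member the ecko values were all above the controls and in 4 all below, where the shares over all genes were 7.55% and 8.11%. In the other 28 members, Lama1 included, the groups overlapped.

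**Figure D1:**
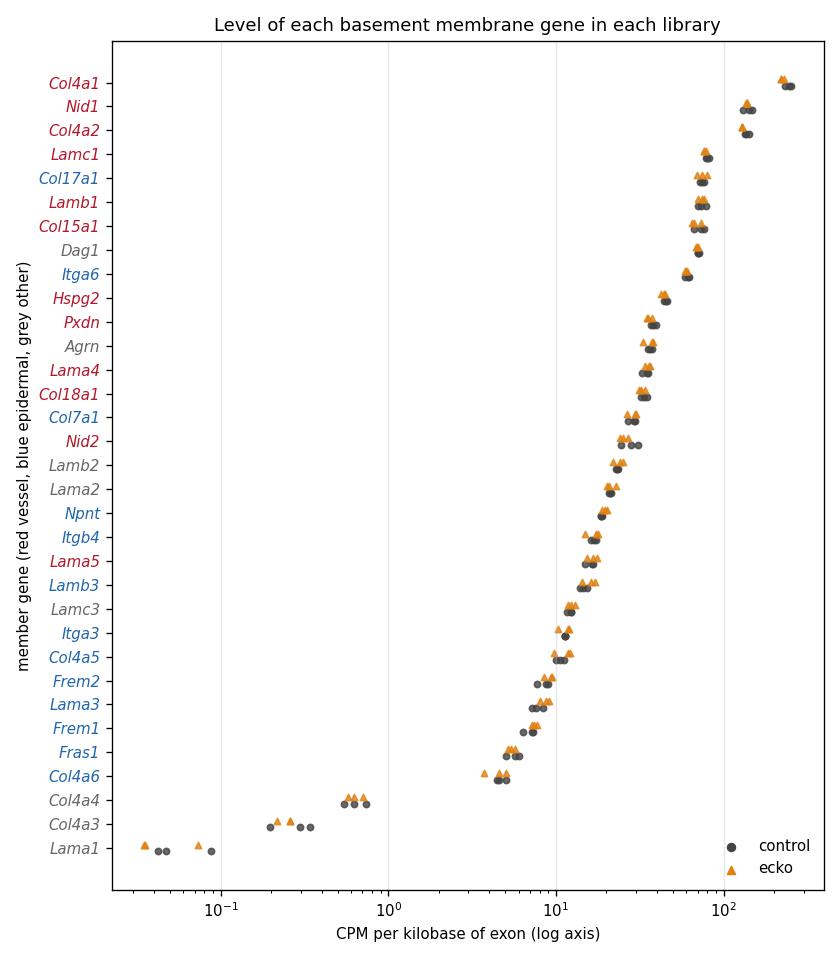
Level of each of the 33 basement membrane genes in each library, as CPM per kilobase of exon on a log axis, ordered by the mean over 6 libraries (circles control, triangles ecko; gene names in red for vessel, blue for epidermal and grey for other members). The genes span from 0.0535 for Lama1 to 233.6 for Col4a1, and the control and ecko points of a gene lie close together beside that span.

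Levels between genes were compared per kilobase of exon. Col4a1 stood highest, with 220 to 254 CPM per kb over the 6 libraries, and its range did not overlap that of any other member. Nid1 (131 to 147) and Col4a2 (128 to 141) followed and overlapped each other. Next came Lamc1, Col17a1, Lamb1, Col15a1 and Dag1, with means between 70.1 and 78.4 CPM per kb and ranges that overlapped from each to the next. Thus the membrane-spanning collagen of epidermal hemidesmosomes was present at about the level of the common laminin chains. At the low end were Col4a4 (0.637), Col4a3 (0.262) and Lama1 (0.0535 CPM per kb), chains known best from kidney and embryo. Lama1 had 6 to 15 counts per library and was the 1 member left out of the test.

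Among collagen IV chains, Col4a1 and Col4a2, the pair that makes the network of most basement membranes, had every ecko value below the lowest control, and neither passed the test. Col4a1 (Entrez 12826, chromosome 8, 11198423 to 11312889) had 1546, 1681 and 1620 CPM in the controls and 1453, 1508 and 1464 CPM in ecko. Its log2 fold change was -0.13 ± 0.06 (SE; edgeR adjusted p 0.578), with a 95% interval of 0.827-fold to 1.01-fold. Col4a2 (Entrez 12827, chromosome 8, 11312805 to 11449287) had 868, 912 and 876 CPM in the controls and 827.3, 827.0 and 827.4 CPM in ecko. Here the difference was -0.10 ± 0.06 (adjusted p 0.638), with an interval of 0.854-fold to 1.02-fold. The 3 ecko libraries were nearly identical for Col4a2, and the lowest control lay above them.

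Col4a5 and Col4a6, X-linked chains of a minor network that in skin lies under the epidermis, had overlapping groups. Col4a5 had 65.8, 73.0 and 68.7 CPM in the controls and 77.0, 63.7 and 79.6 CPM in ecko (log2 fold change 0.09 ± 0.09). Col4a6 had 30.4, 33.6 and 29.8 CPM against 30.6, 24.7 and 33.3 CPM (-0.08 ± 0.11). Ecko 2 was the lowest of the 6 libraries for both genes. Col4a3 and Col4a4, which with Col4a5 form the network of the kidney glomerulus, stayed below 3 and 8 CPM in every library.

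Laminin chains were as close between groups. The gamma1 gene Lamc1 (Entrez 226519, chromosome 1, 153218922 to 153332786), whose chain is part of most laminins, had 602, 604 and 624 CPM in the controls and 578.7, 578.8 and 597.9 CPM in ecko. All ecko values were below the controls, and the log2 fold change of -0.06 ± 0.06 did not pass (edgeR adjusted p 0.769). Lama4, the alpha chain typical of endothelial laminin-411, had 212.0, 214.4 and 196.4 CPM against 218.1, 206.7 and 220.1 CPM. Its difference was 0.05 ± 0.06, so the chain most tied to vessels had overlapping groups with a slightly higher mean in ecko. Lama5, shared by vessels and the epidermal junction, had 182.9 ± 11.1 CPM in the controls and 188.5 ± 13.2 CPM in ecko, and Lamb1, the usual beta partner of both alpha chains, 432.2 ± 24.8 and 431.0 ± 20.2 CPM.

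Of the laminin-332 genes, Lama3 (Entrez 16774, chromosome 18) had the highest fold change of all members. It had 89.4, 82.2 and 77.0 CPM in the controls and 98.2, 86.5 and 93.8 CPM in ecko, with 1 ecko library inside the control range. The log2 fold change was 0.16 ± 0.08 (edgeR adjusted p 0.567; 95% interval 0.997-fold to 1.26-fold). Lamb3 showed 0.12 ± 0.08 (adjusted p 0.658), with 74.7 ± 3.68 CPM in the controls and 81.2 ± 7.1 CPM in ecko. Lama2, the alpha chain of muscle and nerve, had 207.2 ± 2.89 and 208.5 ± 13.9 CPM, Lamb2, a beta chain of synaptic and vessel laminins, 130.2 ± 2.3 and 133.7 ± 9.17 CPM, and Lamc3 70.9 ± 2.26 and 72.4 ± 3.31 CPM.

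Linkers and proteoglycans of the sheet had lower means in ecko, with overlapping groups for each, and none passed the test. The nidogen genes bridge laminin and collagen IV. Nid1 had 850.9 ± 51.2 CPM in the controls and 837.0 ± 11.1 CPM in ecko, and Nid2 135.1 ± 15.4 and 124.3 ± 7.06 CPM (log2 fold change -0.12 ± 0.08, adjusted p 0.688). Nid1, Nid2 and Frem2 were the 3 members with fractional counts in every library, so their estimates share reads with other sequences and are less certain. Hspg2, the perlecan gene, had 642.5 ± 12.8 and 620.1 ± 17.6 CPM, and Agrn, the gene of agrin of the neuromuscular junction and other sheets, 284.3 ± 7.95 and 281.8 ± 20.1 CPM. Col15a1 and Col18a1 encode the multiplexin collagens, and the latter is the source of endostatin. They had 434.7 ± 30.7 against 411.5 ± 27.3 CPM and 227.9 ± 9.31 against 221.3 ± 9.31 CPM. Pxdn, the peroxidase that crosslinks collagen IV, had 308.6, 329.2 and 316.9 CPM in the controls and 291.8, 295.7 and 313.3 CPM in ecko. Its difference of -0.08 ± 0.06 (adjusted p 0.691) was below 0, as were those of Col4a1, Col4a2 and 50.5% of all genes. The groups of Pxdn overlapped.

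The anchoring collagens had fold changes near 0. Col17a1, the hemidesmosomal collagen, had 418.1, 402.8 and 427.8 CPM in the controls and 447.5, 389.2 and 416.1 CPM in ecko, a log2 fold change of 0.00 ± 0.07. Col7a1, which forms the anchoring fibrils, had 272.3, 250.7 and 271.0 CPM against 275.2, 244.5 and 278.6 CPM (0.01 ± 0.07). In both genes the lowest and the highest library belonged to ecko. The Fraser complex genes, needed for adhesion of embryonic skin, had -0.04 ± 0.08 for Fras1, 0.10 ± 0.07 for Frem1 and 0.11 ± 0.08 for Frem2. Npnt, the gene of nephronectin, a ligand of integrin alpha8beta1 made by hair follicle epithelium, had 90.7, 88.7 and 89.4 CPM in control libraries and 94.4, 90.7 and 96.8 CPM in ecko. It was the 1 member with ecko above the controls without overlap, by less than the rounding of these values, and its difference of 0.07 ± 0.06 did not pass (adjusted p 0.732).

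Receptor genes had small differences. Itga6 and Itgb4 encode the integrin of hemidesmosomes, with Itga6 also made by endothelium. Itga6 had 265.4 ± 7.71 CPM in the controls and 260.2 ± 2.89 CPM in ecko, and Itgb4 107.5 ± 3.47 and 106.5 ± 9.52 CPM. Itga3, the alpha chain of a laminin receptor of keratinocytes, had 59.6, 59.3 and 59.7 CPM in the controls and 61.9, 54.1 and 63.2 CPM in ecko. The controls agreed to within 1 CPM while the ecko libraries lay on both sides of them. Dag1, the gene of dystroglycan, had 420.8, 427.9 and 419.9 CPM against 418.0, 407.8 and 413.0 CPM, lower in every ecko library with a log2 fold change of -0.03 ± 0.06 (adjusted p 0.873).

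**Figure D2:**
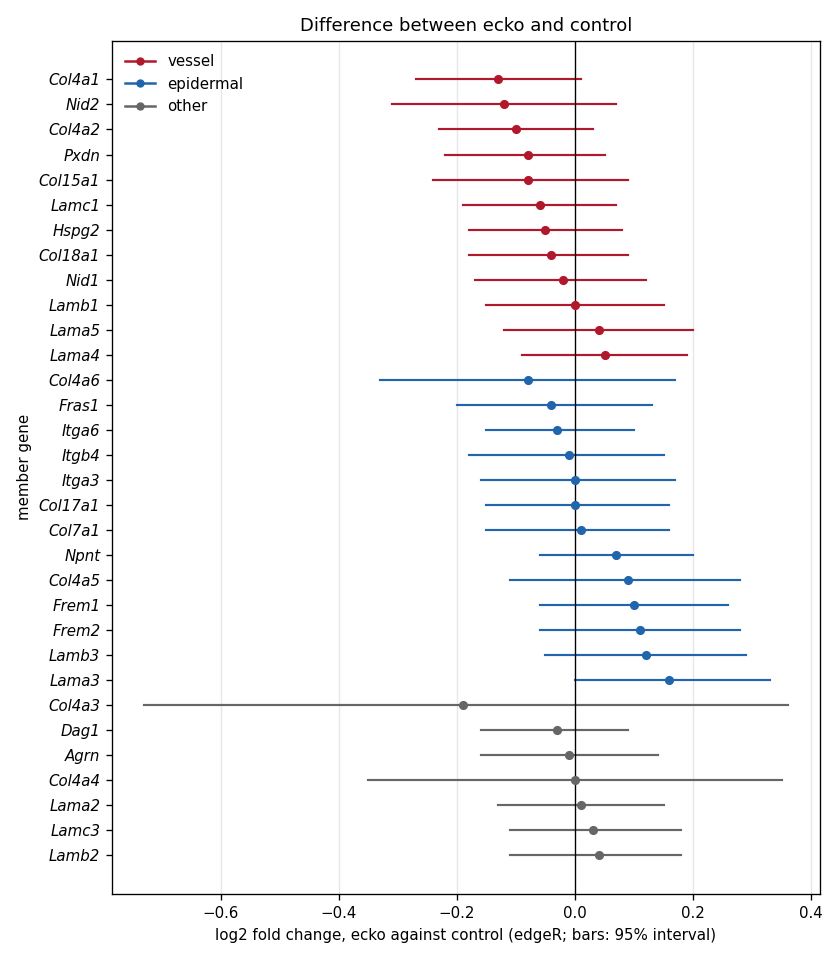
Log2 fold change of ecko against control for the 32 members tested (points, edgeR; bars, unadjusted 95% interval), grouped as vessel (red), epidermal (blue) and other (grey) members. Every interval includes 0, and those of the vessel members reach from -0.31 (Nid2) to 0.20 (Lama5).

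Vessel members had slightly lower fitted values than epidermal members. In the vessel class 10 of 12 had a fold change below 0, where the share over all genes was 50.5%, and the class median was -0.056 (log2). In 3 of the 12 (Col4a1, Col4a2 and Lamc1) all ecko values were below the controls, where the share over all genes was 8.11%. In the epidermal class 4 of 13 were below 0, with a median of 0.008, and in 1 (Npnt) all ecko values were above the controls, where the share over all genes was 7.55%. The 95% intervals of the 12 vessel members lay between 0.808-fold and 1.15-fold, and those of the 13 epidermal members between 0.795-fold and 1.26-fold. The medians differed by -0.063, and by -0.089 in narrower classes that keep 6 vessel members (Col4a1, Col4a2, Lama4, Lamb1, Col15a1 and Pxdn) and 7 epidermal members (Lama3, Lamb3, Col7a1, Col17a1, Itgb4, Fras1 and Frem2). The vessel members left out there (Lama5, Lamc1, Nid1, Nid2, Hspg2 and Col18a1) are also part of other basement membranes. So are Col4a1 and Col4a2, which were kept, and the narrower class is therefore not particular to vessels. Lamb2 (log2 fold change 0.04) was classed as other, although its chain is also found in vessel laminins. No test was made between the classes, since the members were chosen with results of these data known.

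Library by library, the mean over vessel members was 8.69, 8.73 and 8.76 log2 CPM in the controls and 8.68, 8.67 and 8.68 log2 CPM in ecko. The groups did not overlap, but control 1 was within 0.02 of every ecko library. The mean over epidermal members was 6.70, 6.65 and 6.70 in the controls and 6.77, 6.61 and 6.78 log2 CPM in ecko, with ecko 2 the lowest and ecko 3 the highest of all. The vessel mean minus the epidermal mean was 1.99, 2.08 and 2.06 in the controls, against 1.91, 2.06 and 1.90 in ecko. Ecko 2 thus lay within the control range, and without it the difference of the medians was -0.114. It was -0.032 without ecko 1 and -0.099 without control 1. The vessel median was -0.029 without control 3, the library poor in muscle.

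Most markers of endothelium had fold changes below 0, and none passed the test. Of 20 such genes, all tested, 16 were below 0 (50.5% over all genes) and 8 were lower without overlap (8.11%). Their median was -0.163 (log2), with 0 past the edgeR test and 8 at an unadjusted p under 0.05 (9.01% over all genes). Their summed level overlapped, with 796.5 to 958.2 CPM in the controls and 738.2 to 801.1 CPM in ecko, and none of the 20 was at 0. Cdh5, the VE-cadherin gene, had 107.1, 135.4 and 104.5 CPM in the controls and 91.8, 98.4 and 100.2 CPM in ecko (-0.26 ± 0.10, adjusted p 0.513). Pecam1 had -0.17 ± 0.07. The 10 pericyte and smooth muscle markers, the other makers of the vessel sheet, had a median of 0.019, and Pdgfrb, the pericyte receptor, had 86.9 ± 7.27 and 88.3 ± 7.21 CPM. The part of the endothelial level in the vessel values was not tested.

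Adipocytes also carry a basement membrane, and 7 of their 8 markers were below 0 (50.5% over all genes), 3 of them without overlap (8.11%). The adipocyte median was -0.203, and the summed level was 2155 to 2722 CPM in control libraries and 1851 to 2236 CPM in ecko, with none at 0. All 8 macrophage markers were above 0, 2 of them without overlap (7.55% over all genes), with a median of 0.151. EdgeR called 0 markers of either list, and 4 adipocyte and 3 macrophage markers had an unadjusted p under 0.05 (9.01%). DESeq2 called 1 of each (0.711%), which are named after their values were seen. The lipid droplet gene Plin1 had 122.4 ± 8.81 CPM in control libraries and 89.6 ± 16.5 CPM in ecko (log2 fold change -0.45 ± 0.13, DESeq2 adjusted p 0.0365). Mpeg1, a macrophage perforin gene, had 22.4 ± 0.913 and 33.5 ± 1.93 CPM (0.59 ± 0.08, DESeq2 adjusted p 0.000196). EdgeR also called it with the replicate block (adjusted p 0.0134) and the muscle covariate (0.0147), where 0.657% and 0.315% of all genes were called. The replicate numbers did not pair the libraries, as reported further on. The lowest adipocyte value was that of Lep, the leptin gene, at -1.18 ± 0.45 (edgeR adjusted p 0.542). The part of both lists in the members' values was not tested. The 10 basal keratinocyte markers had a median of -0.033, a summed level of 9006 to 9902 CPM in the controls and 9010 to 9068 CPM in ecko, and none at 0. Of these 10, 1 was higher and 2 were lower without overlap (7.55% and 8.11% over all genes). An unadjusted p under 0.05 was found for 4 of them (9.01%). EdgeR called 0 of the 10 and DESeq2 called 1, Dst (0.711% over all genes). The fibroblast markers had a median of 0.016 and the Schwann cell markers of 0.021. Skeletal muscle markers had a median of 0.091, with a summed level of 5790 to 10339 CPM in the controls and 8079 to 9885 CPM in ecko. With the muscle level as a covariate the vessel median was -0.049 and the epidermal median 0.013.

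**Figure D3:**
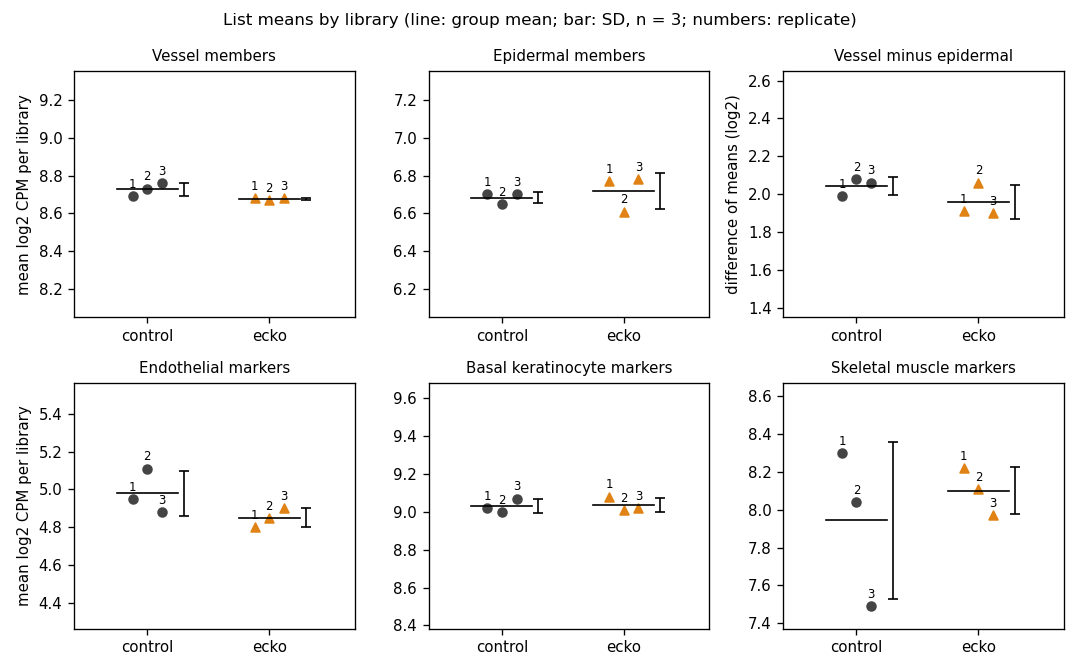
Mean log2 CPM per library for the vessel members, the epidermal members and 3 marker lists, and the difference between the vessel and epidermal means (circles control, triangles ecko, numbered by replicate; line, group mean; bar, SD, n = 3; all panels span the same range in log2 units). The vessel means fall within 8.67 to 8.76, ecko 2 stands among the controls for the vessel minus epidermal difference, and control 3 is low for skeletal muscle.

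Chains that assemble together, or that take each other's place, were compared next. Ratios of CPM per kb of exon were taken for 14 pairs of either kind, chosen after the data had been seen. Col4a1 stood to Col4a2 as 1.74, 1.80 and 1.80 in the controls, against 1.71, 1.78 and 1.72 in ecko. The range was narrow, and both genes were lower in every ecko library. Lamb1 was near parity with Lamc1 (0.924 ± 0.035 in the controls and 0.961 ± 0.045 in ecko). Among laminin alpha chains, Lama4 made up 41.9% to 44.3% of the summed level per kb, Lama2 24.6% to 27.2%, Lama5 18.8% to 21.6% and Lama3 9.25% to 10.7%, with overlapping groups for each. Lama1 made up at most 0.107%.

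In 2 of the 14 ratios the groups did not overlap, where the share over all single genes was 15.7% in both directions together. Col4a5 to Col4a6 was 2.2, 2.21 and 2.35 in the controls, against 2.56, 2.63 and 2.43 in ecko, although neither gene alone separated the groups. Lama4 to Lamc1 was 0.444, 0.448 and 0.397 against 0.475, 0.450 and 0.464, with ecko 2 at the highest control value to within 0.01. With 3 against 3 libraries no exact permutation test could reach the threshold, and none was run on the ratios.

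**Figure D4:**
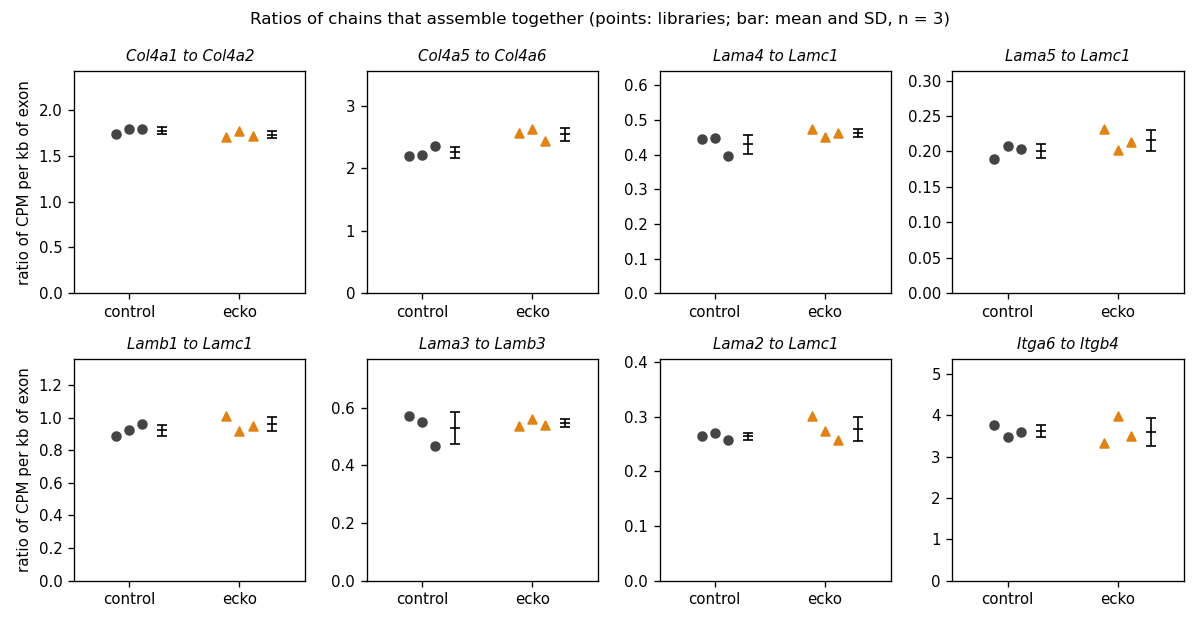
Ratios of CPM per kb of exon for 8 pairs of chains that assemble together, per library (circles control, triangles ecko; bars, mean and SD, n = 3; axes start at 0). Col4a1 to Col4a2 lies between 1.71 and 1.80 in all 6 libraries. Col4a5 to Col4a6 and Lama4 to Lamc1 are higher in each ecko library than in any control. These are 2 of the 14 ratios taken, where 15.7% of all single genes had groups without overlap.

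Other genes of the pathway were tested in the same fit. Of 64 further matrix proteins, receptors and linkers of basement membranes 60 were tested, and edgeR called 0 higher and 0 lower, with a median log2 fold change of 0.000. At an unadjusted p under 0.05 there were 6 of 60 (9.01% over all genes), and limma-voom called 0. DESeq2 called 1, Dst, the gene of the plakin that ties integrin alpha6beta4 to keratin and of its muscle and nerve isoforms. Dst had 361.9, 376.2 and 313.6 CPM in the controls and 570.1, 410.4 and 430.3 CPM in ecko, above the controls in every ecko library and highest in ecko 1, and it is also in the basal keratinocyte marker list. Its log2 fold change was 0.42 ± 0.13 (edgeR adjusted p 0.461, DESeq2 adjusted p 0.043). Over all genes DESeq2 called 0.711%.

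The other partners with the smallest p did not pass either tool. Sdc3, a syndecan proteoglycan of the cell surface, had 80.9 ± 1.56 CPM in the controls and 93.6 ± 5.01 CPM in ecko (edgeR adjusted p 0.447), and the collagen receptor gene Ddr2 152.3 ± 6.29 and 168.1 ± 5.18 CPM. Lower in every ecko library were Sparcl1, a matricellular protein gene (271.6 ± 15.7 and 239.6 ± 6.09 CPM), Vwa1, which encodes a perlecan-binding protein (18.4 ± 1.42 and 15.5 ± 1.27 CPM), and the integrin gene Itgb8 (3.48 ± 0.154 and 2.64 ± 0.187 CPM). Of the receptor genes in that list, Itgb1, Itga1 and Bcam had overlapping groups. Itgb1, the common beta chain, had a log2 fold change of -0.03 ± 0.07, Itga1, a collagen-binding alpha chain of vessels, -0.06 ± 0.10, and Bcam, the Lutheran receptor for laminin alpha5, 0.01 ± 0.06.

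Of 43 genes that process collagen, dystroglycan or heparan sulfate 42 were tested, and edgeR called 0 higher and 0 lower, with a median of -0.014. None had an unadjusted p under 0.05 (9.01% over all genes), and DESeq2 and limma-voom called 0. Serpinh1, the collagen chaperone HSP47, had 984.1 ± 86.1 CPM in the controls and 989.1 ± 88.2 CPM in ecko. The 6 genes with the smallest p were the kinase gene Pomk (0.30 ± 0.14) and the transferase gene Rxylt1 (-0.14 ± 0.09) of dystroglycan glycosylation, the sulfotransferase gene Hs6st1 (-0.17 ± 0.08), the heparan sulfate polymerase gene Ext1 (-0.18 ± 0.13), the lysyl hydroxylase gene Plod2 (0.10 ± 0.07) and Loxl2, a lysyl oxidase that crosslinks collagen IV (0.12 ± 0.06). Loxl2 had 256.4, 273.7 and 286.0 CPM in the controls and 292.7, 298.6 and 292.7 CPM in ecko. Its ecko values were all above the controls. In this list 2 of the 42 genes were higher and 1 was lower without overlap (7.55% and 8.11% over all genes). The related genes Lox, Loxl1, Loxl3 and Loxl4 had overlapping groups. The ecko values of the substrate genes Col4a1 and Col4a2 were all below the controls, and neither they nor Loxl2 passed the test.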

How the data were processed

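The values deposited by the authors are unscaled expected counts for each gene, with fractional values in 10.12% to 10.36% of the genes in a library. RSEM 1.3.1, Bowtie2 2.4.5, HISAT2 2.2.1 and the build GRCm38.p6 are listed, without roles, per the submitters' processing notes. Annotation and strand setting are not given in the sources used here. Counts were rounded and tested with edgeR 4.0.16 (R 4.3.3): filterByExpr with a minimum count of 10, TMM scaling, robust quasi-likelihood fit, Benjamini-Hochberg adjustment over all 14920 genes tested, threshold 0.05. SEs were derived from the F statistic (size of the log2 fold change over root F), and 95% intervals use the test's degrees of freedom. Exon length is the union of protein-coding exons in the GENCODE M21 basic annotation, matched by symbol for 33 of 33 members. List means use log2 CPM with a prior count of 2. Alternatives were DESeq2 size factors, no filter, DESeq2 1.42.0, limma-voom (limma 3.58.1), a replicate block, a muscle covariate, narrower classes and leaving out each library. The edgeR fit was checked on simulated data with fold changes larger than any fitted for the members. That check cannot show whether differences of the members' size would be called. Molecular identifiers are not mentioned in the sources used here, so reads may not be independent molecules.

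Members, classes and lists were chosen with earlier results of these data known. Named are all members, Kdr, the 6 genes with the smallest unadjusted p in each of 2 pathway lists, and Itgb1, Itga1, Bcam, Serpinh1 and defining cell markers. Ddx3y, Plin1, Lep and Mpeg1 were added after their values were seen. An item that the rule also names is not reported here.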

Additional observations from a re-analysis of the deposited data

How the results depend on the processing

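In all settings 0 members and 0 processing genes passed, and Kdr passed in each, at -2.14 to -1.95 (log2) with single libraries left out. Over all genes, 1 passed in the edgeR test, 112 in DESeq2, 98 under the replicate block and 47 given the muscle covariate. Leaving out single libraries gave 1 to 3, the latter without ecko 3. DESeq2 called 1 partner gene, Dst, and the other settings 0. With 1 library left out, the vessel median ran from -0.072 to -0.029, the epidermal median from -0.020 to 0.073 and their difference from -0.114 to -0.032. Equal replicate numbers did not pair the libraries: deviations from the group mean correlated across genes at 0.162, -0.237 and -0.073. The correlation was 0.336 for control 2 with ecko 3, the libraries almost without Ddx3y reads. No setting took that trait into account, and its part in the correlation was not tested. Under the replicate block the vessel median was -0.056, the epidermal median 0.006 and the count of members called 0. Libraries of this depth gave SEs of 0.06 to 0.25 for the members.

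Among values of Kdr and single members under the alternatives, 364 kept their sign and 32 did not, the latter all in members that passed in no setting. Most of these members had values near 0, but Col4a6 had -0.081 in the main fit and 0.035 without ecko 2. With the muscle covariate Col4a4 had -0.060, Lama2 -0.00027, Lamb1 0.025, Agrn 0.002 and Itgb4 0.001. With 1 library left out Col4a4 ran from -0.091 to 0.112, Col4a6 from -0.177 to 0.035, Lama2 from -0.049 to 0.044, Lama5 from -0.007 to 0.098, Lamb1 from -0.041 to 0.047, Lamb2 from -0.005 to 0.093, Lamc3 from -0.003 to 0.064, Nid1 from -0.071 to 0.013, Agrn from -0.047 to 0.047, Col7a1 from -0.032 to 0.066, Col17a1 from -0.051 to 0.054, Fras1 from -0.105 to 0.025, Itga3 from -0.038 to 0.073 and Itgb4 from -0.065 to 0.059. The cause was not tested.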
